A study of Mus musculus with 7 samples.

Results

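The cell cycle genes described here are 32 genes that dividing cells switch on, 13 of S phase and 19 of G2 and mitosis (G2/M). They were chosen by name and matched to array probes by transcript accession or by the probe's description. All 32 were measured, among 29870 genes and unnamed probes that passed a filter on dim signal. The 2 Mki67 probes were found through a description that gives the protein's name, Ki-67. The probe standing for Bub1 was also named by its description.

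The study measured RNA from mouse lymph nodes on 7 two-colour Agilent arrays. Each array set pancreatic lymph node (PLN, red, Cy5) against another node of the same strain (green, Cy3), either the mesenteric node (MLN, 4 arrays) or the inguinal node (ILN, 3 arrays). All mice were 12-week-old females without a stated treatment, and each channel held tissue pooled from 5 mice. The MLN arrays were of BALB/c, FVB, NOD and NOD.B10 mice, and the ILN arrays of FVB, NOD and NOD.B10 mice. NOD is the strain that develops autoimmune diabetes. NOD.B10 is a congenic strain of NOD that differs at the major histocompatibility complex, so the strains are not identical. The titles name NOD.B10 where the strain field gives NOD, and the 4 arrays of both are called NOD background here. PLN was red on every array, so a dye effect of a probe cannot be told apart from a difference between PLN and another node.

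The labels do not say whether the PLN channels of a strain on its 2 arrays came from the same RNA. In the node comparisons, p-values measure the spread between pools of different strains. In the comparisons of FVB with NOD background they measure the spread between arrays within a background. That spread comes partly from the 2 arrays of the same strain and is not one between strains. Fewer cycling cells cannot be told apart from less RNA per cycling cell.

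A cell that enters division first licenses its DNA for copying with the Mcm helicase, raises its nucleotide supply and copies the genome in S phase. It then builds cyclin B and Cdk1 activity, aligns chromosomes on the spindle and separates them once the anaphase-promoting complex is switched on by Cdc20. In lymph nodes, dividing cells are mostly activated B and T lymphocytes, with germinal centre B cells and plasmablasts among the fastest. E2F factors act on many S phase promoters, while many G2/M promoters carry CCAAT boxes and a CHR element (cell cycle genes homology region), through which the DREAM and MuvB complexes act.

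The promoters of members are shown because both phases are known for shared promoter elements. RefSeq promoters of build GRCm38.p6, from 250 bases before to 50 after the start, were at hand for 26 members. The members without one were Ccne2, Mcm4, Ccna2, Aurkb, Kif20a and Tpx2. Both strands were searched for CCAAT, for CHR (TTTGAA or TTTAAA, the second its own reverse complement) and for E2F (TTTCCCGC, TTTGGCGC, TTTCGCGC or TTTGCCGC). The 150 bases before the start follow for 5 of the 7 genes that were lower in FVB ILN, with matches in capitals.
Mcm6 (chr1:128359706-128359855, minus strand): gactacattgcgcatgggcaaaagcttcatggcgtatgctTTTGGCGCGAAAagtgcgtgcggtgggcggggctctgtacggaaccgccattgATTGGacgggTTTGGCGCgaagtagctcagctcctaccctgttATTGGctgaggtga
Mki67 (chr7:135716380-135716529, minus strand): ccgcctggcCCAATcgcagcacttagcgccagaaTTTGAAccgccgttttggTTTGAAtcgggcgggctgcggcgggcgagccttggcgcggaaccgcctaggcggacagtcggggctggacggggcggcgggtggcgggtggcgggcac
Ccnb1 (chr13:100786487-100786636, minus strand): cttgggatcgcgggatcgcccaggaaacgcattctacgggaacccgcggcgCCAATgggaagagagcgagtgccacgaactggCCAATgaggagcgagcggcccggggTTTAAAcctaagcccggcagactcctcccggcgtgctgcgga
Ccnb2 (chr9:70421555-70421704, minus strand): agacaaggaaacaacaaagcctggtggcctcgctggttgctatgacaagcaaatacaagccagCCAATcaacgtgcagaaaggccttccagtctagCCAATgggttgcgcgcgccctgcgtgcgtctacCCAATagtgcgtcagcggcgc
Cdc20 (chr4:118437344-118437493, minus strand): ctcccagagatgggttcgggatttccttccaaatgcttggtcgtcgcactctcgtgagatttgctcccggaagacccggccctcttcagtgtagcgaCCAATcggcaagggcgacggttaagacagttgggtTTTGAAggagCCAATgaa

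The S phase gene Mcm6 held E2F and CCAAT matches in this stretch, 2 of its E2F matches overlapping. The G2/M genes Mki67, Ccnb1 and Cdc20 held CCAAT and CHR matches. Ccnb2 held CCAAT matches here, and its CHR matches began 167 bases before and 4 bases after the start. Birc5 had a single match, a CHR 220 bases before the start.

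Over the whole window, CHR and CCAAT stood together in 12 of 15 G2/M members (80%) and 3 of 11 S phase members (27.3%), beside 10.7% of the 32851 promoters in the table. An E2F match stood in 4 of 11 S phase members (36.4%) and 1 of 15 G2/M members (6.67%), beside 2.26% of all promoters. These are descriptions of letters and were not tested.

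The first comparison asked whether PLN differed from the other nodes, whatever the strain. None of the 32 genes differed between nodes after adjustment (limma, Benjamini-Hochberg adjusted p under 0.05, over all genes). For PLN over MLN, 0% of the 29870 genes passed (4630 had an unadjusted p under 0.05, 15.5%, and 1 member did), and the lowest adjusted p of a member was 0.256. For PLN over ILN, 1.96% of all genes passed and 0 of 32 members did, with 5 members at an unadjusted p under 0.05 (20.3% of all genes). For ILN over MLN, 0.254% of all genes passed and 0 of 32 members, with 1 member at an unadjusted p under 0.05 (6.61% of all genes). Without the FVB ILN array, Mki67 alone passed for PLN over ILN, at a log2 ratio of -0.79 (limma, adjusted p = 0.0344).

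The median log2 ratio of PLN over MLN was -0.00 for S phase and -0.03 for G2/M genes, and that of PLN over ILN was -0.10 and -0.01. The PLN over ILN medians were -0.21 and -0.22 without the FVB ILN array, -0.04 and 0.11 without the NOD ILN array, and -0.01 and 0.06 without the NOD.B10 ILN array. The means over strains combined values of opposite sign.

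**Figure D1:**
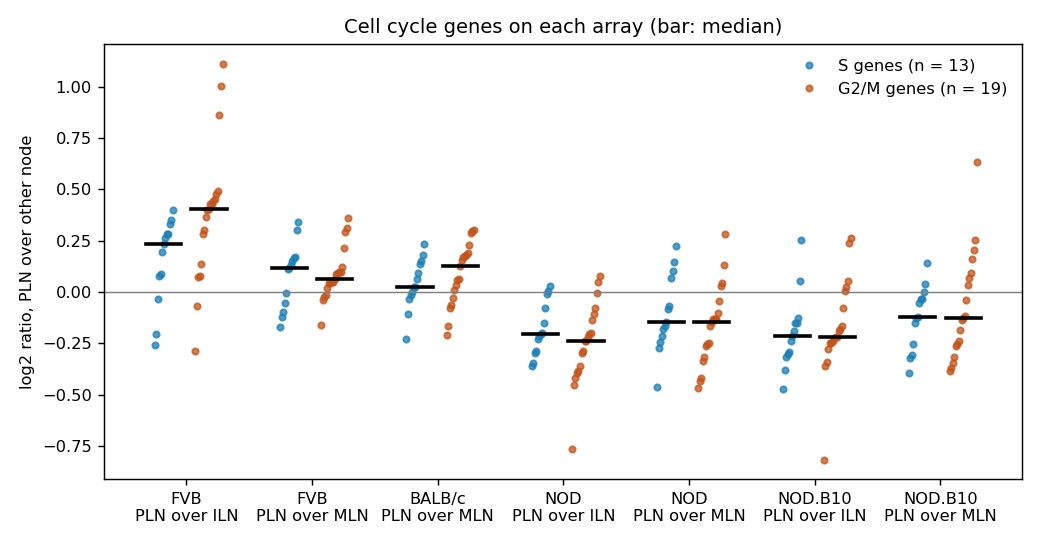
Log2 ratio of PLN over the other node for the 13 S phase genes (blue) and 19 G2/M genes (orange) on each of the 7 arrays, with 1 point a gene and a bar at the median. The medians lie above 0 on the FVB and BALB/c arrays and below 0 on all 4 NOD and NOD.B10 arrays.

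By array, the S phase median was 0.23 on the FVB ILN array, 0.12 on the FVB MLN array and 0.03 on the BALB/c array. It was -0.21 on the NOD ILN array, -0.15 on the NOD MLN array, -0.21 on the NOD.B10 ILN array and -0.12 on the NOD.B10 MLN array. The G2/M median was 0.40 on the FVB ILN array, 0.06 on the FVB MLN array and 0.13 on the BALB/c array, and between -0.24 and -0.13 on the 4 NOD background arrays. The median of all genes stayed between -0.01 and 0.01 on every array. Of the 32 genes, 27 were above 0 on the FVB ILN array (51.7% of all genes) and 4 on the NOD ILN array (46.1%). There were 23 on the FVB MLN array (49%) and 23 on the BALB/c array (51.6%). The NOD MLN array had 8 (49.6%), the NOD.B10 ILN array 7 (49.2%) and the NOD.B10 MLN array 9 (49.6%).

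The second comparison set FVB against NOD background in the PLN ratio, with the node as a term, over 6 arrays. No gene passed, 0% of 29865, with 1662 at an unadjusted p under 0.05 (5.57%), so 0 of 32 members passed. An unadjusted p under 0.05 was found for 17 members. The difference was above 0 for 30 of 32 members, beside 54.1% of all genes, with a median of 0.28 for S phase and 0.44 for G2/M genes. Tk1 and Kif11 were the exceptions, at -0.10 each. Without the FVB ILN array the medians were 0.21 and 0.17, and without the FVB MLN array they were 0.33 and 0.68, with Ccnb1 then past the threshold (limma, adjusted p = 0.0459).

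On both FVB arrays 17 of 32 members had a higher ratio than on all 4 NOD background arrays, a pattern seen in 6.62% of all genes. None had the opposite pattern, seen in 5.54%. These ratios are those of the brightest probe of each gene. Dimmer probes past the filter overlapped between the backgrounds for Ccne1, Mcm3, Tyms, Nusap1 and Cdca8. Those of Mki67 and another of Tyms did not. A ratio above 0 on both FVB arrays and below 0 on all 4 NOD background arrays was found for 11 members, beside 1.59% of all genes. They were Mcm2, Mcm4, Rrm2 and Tyms of S phase, and Ccnb2, Ccna2, Aurka, Birc5, Kif20a, Cdc20 and Nusap1 of G2/M.

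Among the S phase genes, Tyms, which makes thymidylate, had log2 ratios of 0.28 and 0.34 on the FVB ILN and MLN arrays. Its ratios were -0.20 and -0.22 for NOD and -0.30 and -0.32 for NOD.B10, in the same order, and -0.03 for BALB/c. The FVB and NOD background arrays did not overlap for Tyms, and the difference of 0.57 ± 0.09 (SE) had an adjusted p of 0.572 by limma. Rrm2, the regulated subunit of ribonucleotide reductase, was at 0.28 and 0.12 for FVB and between -0.30 and -0.05 for NOD background. The helicase subunit Mcm4 was at 0.23 and 0.16 for FVB and between -0.21 and -0.07 for NOD background, again without overlap.

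Of the other helicase subunits, Mcm2 was at 0.09 and 0.11 for FVB and between -0.31 and -0.08 for NOD background. Mcm3 was at 0.33 and 0.30 for FVB and between -0.18 and 0.03 for NOD background, so neither overlapped. Mcm6 had a ratio of 0.40 on the FVB ILN array, -0.01 on the FVB MLN array and -0.47 to -0.29 on the NOD background arrays. Mcm5 lay between -0.01 and 0.26 on all 7 arrays, and Mcm7 overlapped between the backgrounds. Pcna, the sliding clamp of the replication fork, was above 0 on 6 arrays, with -0.03 on the NOD.B10 MLN array. Of the cyclins that start S phase, Ccne1 was at 0.08 and 0.15 for FVB and between -0.15 and 0.04 for NOD background, while Ccne2 was below 0 on all 7 arrays. Rrm1, the large reductase subunit, and Tk1, which salvages thymidine, also overlapped.

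Among the G2/M genes, Cdc20, the activator of the anaphase-promoting complex, had ratios of 0.49 and 0.36 on the FVB ILN and MLN arrays. It was at -0.20 and -0.47 for NOD, -0.19 and -0.31 for NOD.B10 and -0.03 for BALB/c. Its difference of 0.72 ± 0.09 (SE) was the largest of the members, with an adjusted p of 0.316 by limma. Birc5, the survivin subunit of the chromosomal passenger complex, was at 0.43 and 0.22 for FVB and between -0.42 and -0.25 for NOD background. Aurka, a kinase of the spindle poles, was at 0.43 and 0.30 for FVB and between -0.38 and -0.14 for NOD background.

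Cyclin B2 (Ccnb2) was at 0.44 and 0.31 for FVB and between -0.34 and -0.21 for NOD background. Cyclin A2 (Ccna2) was at 0.28 and 0.05 for FVB, between -0.45 and -0.13 for NOD background and at 0.30 for BALB/c. Nusap1, a spindle microtubule protein, and Kif20a, a kinesin of cytokinesis, were split in the same way. Others departed from this. Bub1b, a spindle checkpoint kinase, stayed between -0.17 and 0.09 on all 7 arrays. Aurkb, the kinase of the passenger complex, had its highest ratio of 0.24 on the NOD.B10 ILN array. Kif11, a motor that separates the spindle poles, was at -0.29 on the FVB ILN array, its lowest.

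The third comparison took the ratio apart into channel levels, since a ratio can move through either node. Levels are normalized log2 intensities scaled between arrays, are compared only within a gene and are open to dye bias that varies between arrays. Each node was in the same dye in every strain compared. In PLN itself, 0.784% of 29476 genes differed between FVB and NOD background, and 0 of 32 members did, with medians of 0.00 for S phase and -0.10 for G2/M. There 4 members had an unadjusted p under 0.05, beside 7.92% of all genes. Both FVB PLN channels lay below all 4 NOD background channels for 6 members (10.3% of all genes) and above them for 4 (11.5%). In MLN, 0.417% of all genes differed, 0.221% were lower in FVB, and 1 of 32 members, Cdc20, was lower. In MLN 7 members had an unadjusted p under 0.05, beside 6.52% of all genes, and 6 of 32 were above 0, beside 50.5%. The FVB MLN level was below both NOD background levels for 21 members, beside 30.7% of all genes. In ILN, 1.84% of all genes differed, and 1.41% were lower in FVB. There, 7 of 32 members were lower in FVB and 0 were higher, beside 0.424% of all genes (1 of 13 S phase and 6 of 19 G2/M genes).

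The ILN median difference was -0.34 for S phase and -0.73 for G2/M genes, a median fold of 1.26 and 1.66 lower, and 0.00 to 2 decimals for all genes. It was below 0 for 27 of 32 members, and above 0 for 5, beside 49% of all genes. An unadjusted p under 0.05 was found for 21 members, beside 11.4% of all genes. The FVB ILN level was below both NOD background ILN levels for 8 of 13 S phase and 16 of 19 G2/M genes, a pattern seen in 28.3% of all genes. The G2/M median was -0.75 against NOD and -0.64 against NOD.B10, and that of S phase genes was -0.50 and -0.28 in the same order.

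The ILN and MLN tests rest on 1 FVB channel against 2 of NOD background, with the spread taken from all 14 channels. Their differences are fitted values that also draw on the PLN channel of the same array. They therefore depart from plain differences of the levels given. The ILN count of 7 was 0 without the NOD ILN array, 2 without the NOD.B10 ILN array, 1 without the FVB MLN array and 1 without the NOD.B10 MLN array. In each of these refits fewer of all genes passed as well, against 541 of 29476 in the main fit. The 7 genes were below 0 in all 15 alternative fits run, and were called in 4 (Ccnb2) to 11 (Ccnb1) of them.

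**Figure D2:**
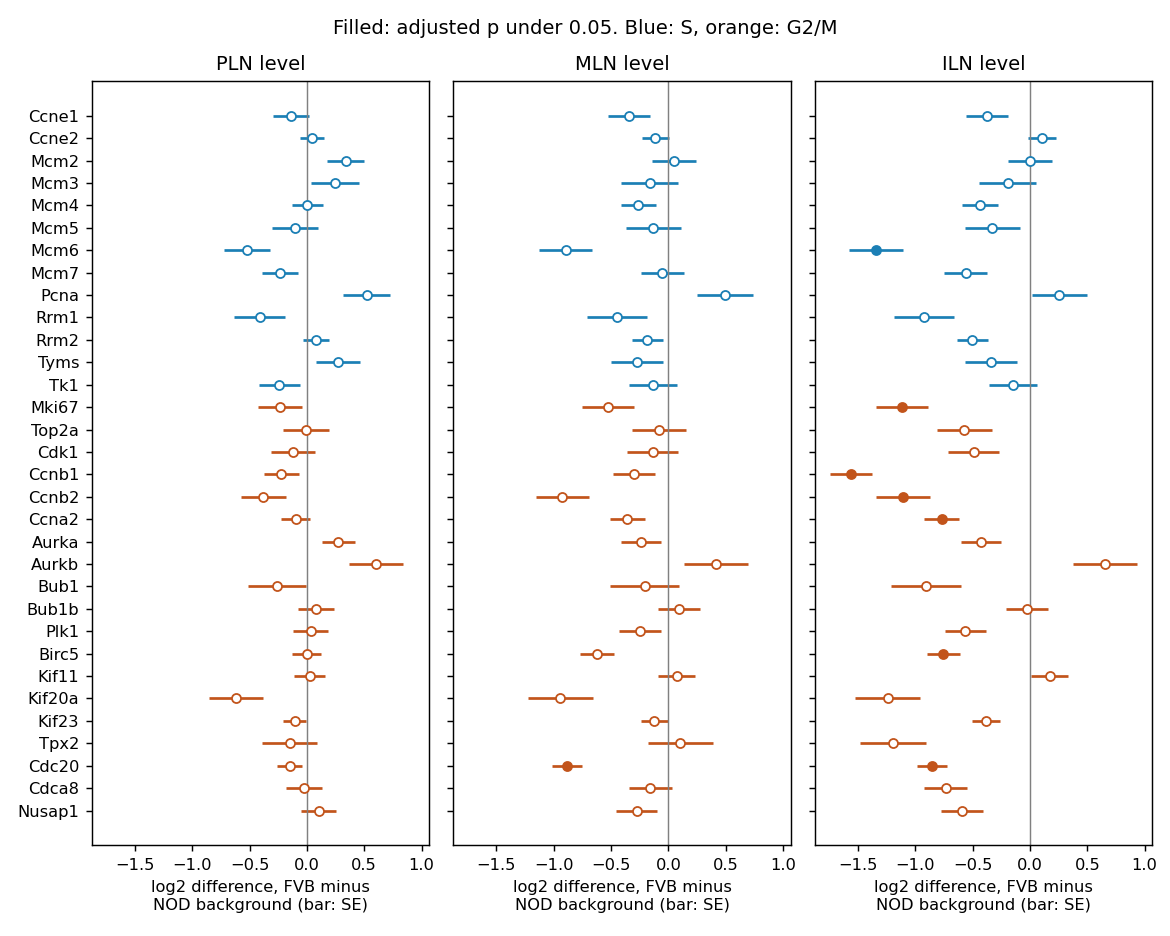
Difference in log2 level, FVB minus NOD background, of each of the 32 genes in PLN, MLN and ILN, with its standard error, blue for S phase and orange for G2/M. Filled points passed an adjusted p of 0.05: none in PLN, Cdc20 in MLN and 7 genes in ILN, all below 0.

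Cyclin B1 (Ccnb1), the partner of Cdk1 at entry into mitosis, had an ILN level of 5.81 in FVB, 7.39 in NOD and 7.31 in NOD.B10. Its FVB level there was near the floor that the normexp offset of 50 sets, the lowest of any member but Tpx2. The difference of -1.56 ± 0.18 (SE), 2.95-fold lower in FVB, had an adjusted p of 0.00349 by limma. Over the alternative fits the difference ran from -3.15 with a normexp offset of 0 to -0.53 with the mean of its probes, so its size depended on the processing. The main value rested on the brightest of 3 probes. The other probes of Ccnb1 gave differences of plain channel means in ILN, FVB minus NOD background, of 0.03 and -0.18, and with that mean Ccnb1 was not called. In PLN, its 2 FVB channels were both at 6.93, below the 4 NOD background channels at 7.02 to 7.34.

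Cyclin B2 (Ccnb2) had an ILN level of 8.496 in FVB, 9.50 in NOD and 10.15 in NOD.B10. Its difference was -1.11 ± 0.23 (SE), with an adjusted p of 0.0467 by limma. In MLN it was at 8.84 in FVB, 9.61 in NOD and 9.49 in NOD.B10, so FVB was the lowest there as well, without passing the test (limma, adjusted p = 0.222). Cyclin A2 (Ccna2), which serves both S phase and mitosis, had an ILN level of 7.97 in FVB, 8.75 in NOD and 8.59 in NOD.B10, a difference of -0.77 ± 0.15 (SE) (limma, adjusted p = 0.0372). Cdk1 itself was at 6.78 in FVB, 7.18 in NOD and 7.59 in NOD.B10 and did not pass (limma, adjusted p = 0.46).

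Cdc20 had an ILN level of 8.95 in FVB, 9.95 in NOD and 9.78 in NOD.B10, a difference of -0.85 ± 0.13 (SE) (limma, adjusted p = 0.0117). In MLN it was at 9.19 in FVB, 10.04 in NOD and 10.0017 in NOD.B10, a difference of -0.88 ± 0.13 (SE) (limma, adjusted p = 0.0185). The BALB/c MLN level of 9.63 lay between them. The MLN call was lost without the FVB ILN, the NOD ILN, the NOD.B10 ILN or the NOD.B10 MLN array, each of which left 0 members called there. In PLN, Cdc20 was at 9.45 and 9.55 in FVB and between 9.57 and 9.75 in NOD background.

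Birc5 had an ILN level of 9.16 in FVB, 10.08 in NOD and 9.73 in NOD.B10, a difference of -0.75 ± 0.15 (SE) (limma, adjusted p = 0.0349). In PLN its FVB channels, at 9.58 and 9.63, lay among the NOD background channels, at 9.48 to 9.73. Mki67, a protein of the surface of mitotic chromosomes used as a marker of cycling cells, had an ILN level of 9.42 in FVB, 10.53 in NOD and 10.20 in NOD.B10. Its difference was -1.11 ± 0.23 (SE) (limma, adjusted p = 0.0421), and its second probe gave a difference of channel means of -1.50.

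Mcm6 was the S phase gene called. Its ILN level was 10.57 in FVB, 12.27 in NOD and 11.86 in NOD.B10, a difference of -1.34 ± 0.23 (SE) (limma, adjusted p = 0.0212). FVB was also the lowest of the 3 strains in MLN, at 11.01 against 11.57 and 11.94, and in PLN, at 10.97 and 11.00 against 11.11 to 11.98. BALB/c, at 10.65 in PLN and 10.87 in MLN, was lower than FVB in both. Mcm6 thus differed in pattern from Birc5, whose PLN levels overlapped.

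**Figure D3:**
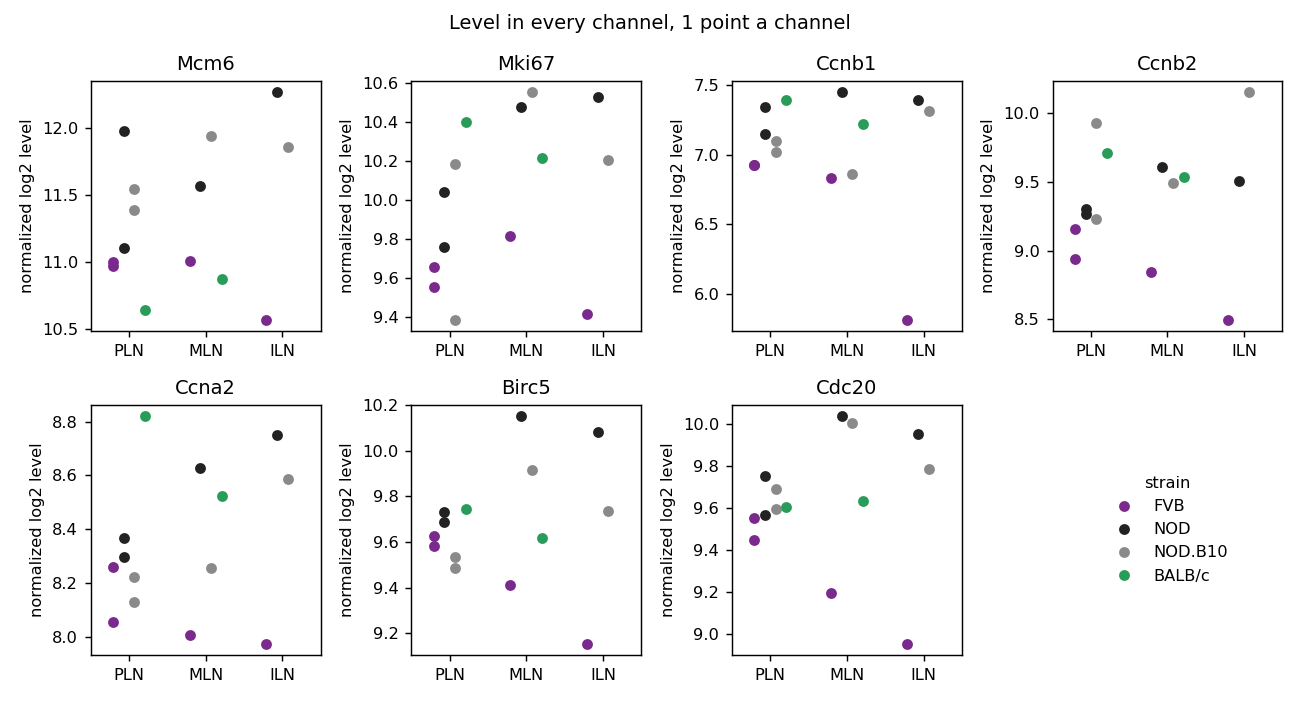
Normalized log2 level of the 7 genes called in ILN, with 1 point a channel, for PLN, MLN and ILN by strain. The FVB ILN point is the lowest ILN point in each panel, and the FVB PLN points lie closer to the other strains.

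The members that were not called in ILN ranged from -1.24 to 0.66. Kif20a at -1.24 ± 0.28 (SE) and Tpx2, an activator of Aurka on the spindle, at -1.19 ± 0.29 (SE) were as far below 0 as called genes but had larger errors (limma, adjusted p = 0.065 and 0.0805). Tpx2 passed under 5 of the 15 alternative fits. Aurkb was the highest member, with an ILN level of 7.58 in FVB, 7.32 in NOD and 6.42 in NOD.B10. Pcna, Kif11 and Ccne2 were also above 0, at 0.26, 0.17 and 0.10. Mcm2 was at 0.00 and Bub1b at -0.02. Rrm1 at -0.92, Bub1 at -0.91, Cdca8 at -0.73, Nusap1 at -0.59, Top2a at -0.57, Plk1 at -0.56, Mcm7 at -0.56 and Rrm2 at -0.50 did not pass. Of 14 further probes of members past the filter, 10 were below 0 in the plain difference of ILN channel means. Of these, the probes of Kif11, Cdca8 and Top2a were close to 0, and those of Mki67 and Mcm3 lay furthest below it. No share over all probes stands beside the 10 of 14 in plain differences, so that count of signs alone says little. In the fitted ILN difference, a different measure, 49% of all genes were above 0.

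Other genes of the cell cycle were read from lists that hold no member. Among 34 further replication genes, 0 were lower and 1 was higher in FVB ILN, with a median of -0.27. That gene was Prim2, a primase subunit, at 1.35 ± 0.13 (SE), and it was also higher in FVB PLN at 1.40 and in FVB MLN at 1.31. Among 38 further mitosis genes, 5 were lower and 0 higher in FVB ILN, with a median of -0.36. The largest differences were those of Racgap1, which organises cytokinesis, at -1.33 ± 0.24 (SE), of the checkpoint protein Mad2l1 at -1.06 ± 0.16 (SE) and of the midzone protein Prc1 at -0.98 ± 0.17 (SE). Of the 15 alternative fits, Racgap1 passed in 7, Mad2l1 in 10 and Prc1 in 8, and the other two in 4 and 6.

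Of 27 cell cycle transcription factors and regulators, not all of G1, 1 was lower in FVB ILN. It was the MuvB partner Mybl2 at -1.25 ± 0.13 (SE), and the list median was -0.03. The same list had Ccnd1, cyclin D1, higher in PLN than in ILN at 0.40 ± 0.07 (SE). Of 18 brakes of the cell cycle, 0 differed between the backgrounds in ILN. The inhibitor Cdkn2d at -0.39 ± 0.08 (SE) and the quiescence factor Klf2 at -0.36 ± 0.07 (SE) were lower in PLN than in ILN. Of 18 alternative fits, Ccnd1 passed in 9, Cdkn2d in 8 and Klf2 in 5.

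Markers of other cells were read in the same comparison, where 1.41% of all genes were lower in FVB ILN and 0.424% higher. Of 8 plasma cell markers, 3 were lower in FVB ILN and 0 higher (Jchain, Irf4 and Mzb1), and their median level was 6.997 in FVB, 7.54 in NOD and 7.57 in NOD.B10. The 3 brightest of the 8 were Jchain, Mzb1 and Xbp1, with Jchain at 10.06 in FVB, 12.55 in NOD and 11.85 in NOD.B10. Of 12 germinal centre B cell markers, 1 was lower, and their median level was 6.96, 7.18 and 7.42 in the same order. Of 10 activated T cell markers, 0 passed in ILN, with 8 below 0, 2 above 0 and a median difference of -0.29. For PLN over ILN, 2 of these 10 were higher and 0 lower, at a list median of 0.02. Of 10 white adipose markers, 4 were higher in FVB ILN and 0 lower, with a median level of 9.03 in FVB, 7.42 in NOD and 7.72 in NOD.B10. The brightest were Fabp4, Cfd and Car3, with Fabp4 at 12.66, 10.77 and 10.24. All 8 plasma cell markers were well above background in each ILN channel, as were 9 or 10 of the adipose markers. Of 6 erythroid markers measured, 0 passed the test, but 5 were above 0, with a median difference of 1.11 and a median level of 7.71 in FVB, 6.45 in NOD and 6.69 in NOD.B10. The brightest, Hba-a1, a globin of red cells, was at 13.90 in FVB ILN, 9.61 in NOD and 9.73 in NOD.B10. Epor, the next brightest, was at 7.33, 7.49 and 7.28, and Slc4a1 at 8.84, 6.36 and 6.46. Alas2, named after its values were seen, as was Irf4, was at 8.07, 6.50 and 6.27. The part of these cells in the cell cycle differences was not tested.

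The arrays also differed technically. The BALB/c and NOD MLN arrays were read on an earlier scanner, and the NOD.B10 ILN array was scanned on a day of its own. Median signal was 68.0 to 105 in PLN channels and 86.1 to 199 in the others. The 12 listed lymph node markers had 11 measured, and at least 10 of those were well above background in every channel. Acinar markers of the pancreas were higher in PLN than ILN for 8 of 11, with all 11 above 0 at a median of 4.32. Over MLN, 0 passed, but all 11 were above 0, at a median of 3.57. FVB minus NOD background was above 0 for all 10 measured in PLN and MLN, at medians of 0.89 and 2.60. There 0 passed, and in ILN 5 of 10 were above 0. The median MLN level was 13.86 in BALB/c and 11.78, 10.70 and 9.21 in FVB, NOD and NOD.B10. The part of acinar tissue in the cell cycle differences was not tested. With the scanner as a block, 7 members were lower in FVB ILN, while 773 of 29476 genes passed in either direction. Of the 7 members, 5 were among those named above. Ccnb2 and Mki67 were then not called, and Cdca8 and Tpx2 were (limma, adjusted p = 0.0327 and 0.0336). The 2 PLN channels of a strain differed by a median of 0.10 over the members for FVB, 0.19 for NOD and 0.18 for NOD.B10.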

How the data were processed

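Two-colour Agilent scanner files of 7 arrays were used, whose red and green mean and background intensities were deposited by the authors as read by Agilent Feature Extraction (8.5.1.1, per the file headers). The log10 ratios (LogRatio) in the deposited files and the deposited log2 value table were alternatives. The table followed the log10 ratios converted to log2, less a constant per array, at correlations of 0.9998 to 0.9999, with single probes departing by up to 0.76 to 2 on the log2 scale. Intensities were corrected with normexp (offset 50) and loess within arrays (limma 3.58.1, R 4.3.3). Control spots and outlier spots were left out. Of 41174 probes, 35817 (87%) were well above background on at least 3 arrays in a channel, and the brightest probe stood for a gene. RefSeq accessions named 22072 probes, descriptions 1349, and 17753 stayed unnamed. Ratios were fitted over 7 arrays by node and over 6 by node and background. Levels were scaled with Aquantile and fitted by channel (lmscFit, intraspot correlation 0.771). All tests are two-sided with Benjamini-Hochberg adjustment over all genes tested.

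The members and lists were chosen with earlier results of these data known. All 32 members are named. Of other cell cycle lists, up to 3 called genes per direction are named, and of marker lists the 3 brightest. The fits were tested on simulated data. Strain gives 3 ILN and MLN pairs, whose deviations over all genes correlated at 0.03 for FVB, 0.18 for NOD and 0.15 for NOD.B10. The number of arrays limits the precision.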

Additional observations from a re-analysis of the deposited data

Results flagged for a closer look

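Kif23, a kinesin of cytokinesis, had a PLN over MLN log2 ratio of -0.0775 on the BALB/c array, while the FVB, NOD and NOD.B10 arrays lay between 0.04 and 0.07. The BALB/c value stood apart by Dixon's gap test. It was the only one of 34 items tested (32 genes and both medians), and chance sets apart about 1 item in 20.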

How the results depend on the processing

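No called difference changed sign. Medians did: for PLN over ILN the G2/M median ran from -0.22 to 0.11 over the alternatives, and without the FVB ILN array the ILN over MLN G2/M median was 0.21 against -0.03. With the scanner as a block the PLN over MLN G2/M median was 0.02 against -0.03. Other node medians close to 0 turned too, and medians that turned under median centring or without scaling are given below. For FVB minus NOD background in the PLN ratio, the S phase and G2/M medians were 0.31 and 0.56 with offset 0, 0.25 and 0.42 without background subtraction, 0.57 and 0.51 with median centring, 0.29 and 0.47 with a strict probe filter, 0.30 and 0.63 with Agilent's own ratios, and 0.26 and 0.40 with array weights. The G2/M median alone moved to 0.31 with the mean of a gene's probes and to 0.62 with the deposited table, and the S phase median to 0.25 on the later scanner alone and with the scanner as a block. Leaving out 1 array gave S phase medians of 0.21 to 0.33, G2/M medians of 0.17 to 0.68 and 0 to 1 members called. Spread here is the SD of array medians within background and node, on few arrays, so small shifts count as moves.

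Median centring gave PLN over MLN medians of 0.82 and 0.65 and ILN over MLN medians of 0.83 and 0.65. It left 0 members called in MLN and ILN, where 3 and 5 of all genes passed. The medians were 0.18 and -0.0038 in MLN and -0.96 and -1.13 in ILN. Without scaling between arrays, 0 members were called in MLN and ILN, beside 24 and 33 of all genes. The median of all genes then shifted by 0.81 in PLN, 0.80 in MLN and 0.76 in ILN. The S phase and G2/M medians were then 0.36 and 0.51 in PLN, 0.31 and 0.34 in MLN and 0.12 and -0.28 in ILN, all below the shift. With offset 0 the ILN count of 7 was 3, while 661 of all genes passed there against 541 in the main fit. The MLN count was then 0, beside 49 of all genes against 123. It was also 0 with the strict filter, beside 80 of 13694 genes. The mean of probes gave an ILN G2/M median of -0.53. Leaving out 1 array gave 0 to 7 members called in ILN, 0 to 1 in MLN and 0 to 1 for PLN over ILN.

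The count of all genes called for ILN over MLN was 76, against 18 with the scanner as a block and 26 with strain as a block, and 0 members were called in each. Over all genes the deviations of the strain pairs correlated at 0.03 to 0.18. The S phase and G2/M medians of the members had the same sign on both arrays of a strain. No ILN value can be had without the FVB ILN array, nor an MLN value without the FVB MLN array. In the window of 100 bases before the start, 3 S phase members held CHR, 1 held CHR with CCAAT, and 0 G2/M members held E2F. The level fits under other backgrounds, filters, probes and scanners were chosen after seeing the data. Dim probes limit Ccne2, Top2a, Aurkb and Kif11, which were not well above background in every channel. Ccnb1 and Tpx2 passed that flag in every channel. Their FVB ILN levels were still the lowest of all members, at 5.81 and 5.76.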
